A study of Gallus gallus with 6 samples.

Results

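The Z chromosome genes measured in blood leukocytes of male and female chickens are described here gene by gene and along the chromosome. A gene was included when a probe's RefSeq accession mapped to chromosome Z in the RefSeq gene table of assembly GRCg7b and the probe was well above background, by the scanner's own flag, on at least 3 of the 6 arrays. Of 222 Z genes with a probe on the array, 198 passed that filter. A further 8 (HINT2, UBAP2, SPIN1, PAX5, CD72, GZMA, AVD and FOXD1) were set aside by the choice of genes, which left 190 Z genes among 4859 named genes and 29509 features tested in all. The 16 Z genes well above background on no array, 7 on 1 array and GLDC on 2 arrays lay outside the filter. The Z genes nearest to its edge on the inside were RAX and LOC770548, on 3 arrays, and KANK1, on 4, and 184 of the 190 were well above background on all 6.

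In birds the male carries a pair of Z chromosomes, and the female carries a single Z with a W. The Z holds many genes that the small, gene-poor W lacks, so that most Z genes have a single copy in females. Birds are not known to silence a whole Z in males in the way that mammals silence an X in females, and avian dosage compensation is usually described as partial and as differing from gene to gene. DMRT1, the Z-linked gene required for testis development in chickens, lies beside a stretch known as the male hypermethylated region, which is transcribed into noncoding RNA in females.

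The study measured total RNA of leukocytes from wing vein blood of chickens aged 1 to 2 months, taken from the interface of a Ficoll-Paque density gradient. There were 3 libraries labelled male and 3 labelled female, each hybridised with Cy3 to its own single-colour Agilent array, and the stated purpose was to compare the sexes. The series title names transgenic and non-transgenic chickens, but the labels give these 6 libraries no transgene, strain or treatment, and nothing in them ties a library to a bird of its own. The p-values therefore measure the spread between these samples, which may be technical.

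All levels are log2 of the scanner's processed signal relative to the array's own 75th percentile, and all differences are male minus female on that log2 scale, so that a difference of 1 is a ratio of 2. On each array 79.0% to 83.1% of the 43803 spots exceeded background by the scanner's flag, and 0 were saturated. Of 8 genes chosen as general leukocyte markers, 6 were measured, at mean levels of 0.87 to 5.82. Among them PTPRC, which encodes the leukocyte surface phosphatase CD45, stood at 1.21, 1.60 and 1.35 in male 1, 2 and 3, against 1.66, 1.68 and 0.92 in female 1, 2 and 3. Markers of heterophils, the avian counterpart of neutrophils, varied most, and the 4 measured were AvBD1, AvBD6, AvBD7 and CATHB1. On average they lay 0.01, -2.16 and 1.41 from their own mean in male 1, 2 and 3. In female 1, 2 and 3 the averages were -0.10, -1.17 and 2.01. CATHB1 did not share that order, at -4.49, -4.47 and -4.60 in the male libraries and -5.09, -5.04 and -3.91 in the female libraries. The 11 erythroid markers lay at 0.05, -0.78 and 0.57 in the male libraries and at 0.26, 0.08 and -0.17 in the female libraries. The part of cell composition in the Z results was not tested, and fewer cells of a type cannot be told apart from less RNA per cell in bulk leukocytes.

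HINTW, a W-linked gene present in females only, checks the labels. Its level was 4.58, 4.48 and 6.99 in male 1, 2 and 3, against 6.61, 6.47 and 4.65 in female 1, 2 and 3. The library labelled male 3 was thus the highest of the 6, and the library labelled female 3 was close to male 1 and male 2. At 4.58 and 4.48, male 1 and male 2 still gave a strong signal for a gene that males lack. What else the probe may bind was not tested, so the check rests on the gap between libraries. Because 2 of the 6 libraries went against their labels, Z results are given with and without them. Each is given over all 6 libraries, over the 4 libraries numbered 1 and 2, and for male 3 minus female 3 alone. The Z levels of these 2 libraries were also known from earlier results of these data when that choice was made. The Z differences and p-values of the 4 libraries are therefore not independent of the choice. The names male and female below are those of the labels. The 3 male-labelled arrays shared 1 slide and the 3 female-labelled arrays another, and the effects of slide and label cannot be told apart; male 3 and female 3 lay on the same slides as their namesakes.

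The Z chromosome as a whole stood in opposite order in the libraries numbered 3. The median Z gene, less the median autosomal gene, lay 0.27, 0.25 and -0.26 from its mean over the 6 libraries in male 1, 2 and 3, against -0.27, -0.25 and 0.28 in female 1, 2 and 3. Male 1, male 2 and female 3 were nearly equal, and so were male 3, female 1 and female 2 on the other side of 0. Of the 190 genes, 154, 156 and 42 were above their own mean in male 1, 2 and 3, against 37, 43 and 157 in female 1, 2 and 3. By label, the Z value averaged 0.09 ± 0.30 in male libraries and -0.08 ± 0.31 in female libraries (SD, n = 3 each), a difference smaller than either spread.

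**Figure D1:**
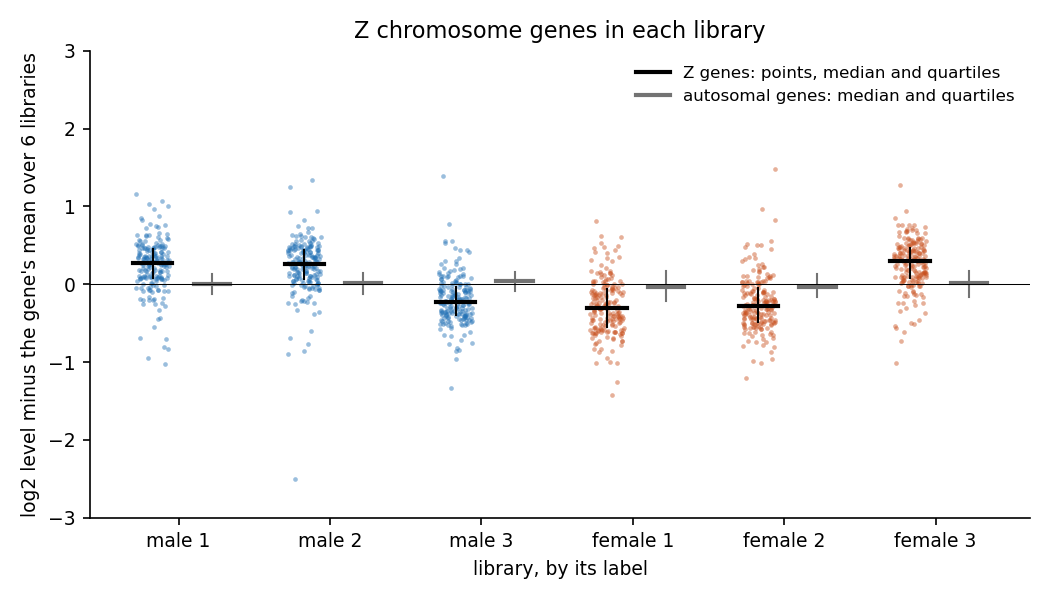
Log2 level of each of the 190 Z genes minus that gene's mean over the 6 libraries (vertical axis), by library label (horizontal axis); points are genes, black bars medians and quartiles, and grey bars the medians and quartiles of 4647 autosomal genes. The Z genes of male 1, male 2 and female 3 lie mostly above 0 and those of male 3, female 1 and female 2 mostly below it, while autosomal medians stay near 0.

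Over all 6 libraries, differences on the Z were small. The median Z difference was 0.19, against 0.03 for autosomal genes, a shift of 0.16. The male mean was higher for 151 of 190 Z genes (79.5%), where 47.4% of all features were higher. None of the 190 passed limma's test at an adjusted p of 0.05, with 0% of all features called and a lowest adjusted p of 0.948 among the Z genes. At an unadjusted p of 0.05, 1 Z gene differed in either direction, beside 3.81% of all features: 0 were higher, beside 1.77%, and 1 was lower, beside 2.04%.

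The gene lower at that threshold was GHR, the growth hormone receptor. It stood at -3.34, -3.27 and -3.10 in male 1, 2 and 3, against -2.80, -2.79 and -2.78 in female 1, 2 and 3. On this probe, the brightest of 7, all male-labelled libraries were below all female-labelled libraries. The difference was -0.45 (SE 0.13, n = 3 each, limma unadjusted p = 0.011, adjusted p = 0.948). GHR was the only Z gene whose labels did not overlap in the downward direction, beside 4.16% of all features, but this held for 1 of its 7 probes. All 7 were lower in male 1 and 2 than in female 1 and 2, with differences of -2.38 to -0.51. In male 3 minus female 3 the brightest probe differed by -0.32, while the other 6 were higher, by 0.28 to 2.10. With a gene's probes averaged, 0 Z genes passed an unadjusted p of 0.05, so that the GHR result rests on the choice of probe. In the upward direction SMN, the survival motor neuron gene, was the only Z gene without overlap, beside 3.84% of all features; it is named because it was that only gene, after its values were seen. SMN differed by 0.18 in the 4 libraries and by 0.18 in male 3 minus female 3.

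The next smallest unadjusted p-values over 6 libraries belonged to EFNA5, NTRK2, FOCAD, SEMA4D and CENPH. EFNA5 encodes an ephrin ligand of neuronal guidance, and it differed by -0.75 (SE 0.31, limma unadjusted p = 0.052). NTRK2, a neurotrophin receptor, differed by -0.47 (SE 0.23, limma unadjusted p = 0.080), at a level near background, where male 3 was not well above it and the sign turned with another background correction. FOCAD, a focal adhesion gene, differed by 0.66 (SE 0.32), SEMA4D, a leukocyte semaphorin, by 0.45 (SE 0.23), and CENPH, a centromere protein, by 0.46 (SE 0.24), with limma adjusted p = 0.948 for each.

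In the 4 libraries numbered 1 and 2 the Z genes were mostly higher in male. The median difference was 0.60, a ratio of 1.51, with quartiles of 0.16 and 0.90 (ratios of 1.12 and 1.86), against a median of 0.04 over autosomal genes. The shift of the Z against the autosomes was 0.55, a ratio of 1.47. Male 1 and 2 had the higher mean for 159 of 190 Z genes (83.7%), where 45.7% of all features were higher. None of the 190 had an adjusted p under 0.05 in limma's test of 2 libraries against 2, beside 0.288% of all features; the lowest was 0.058, and 32 were under 0.1 (1.69% of all features). At an unadjusted p of 0.05, 119 Z genes differed in either direction, where 21.6% of all features did. Of these, 109 were higher (8.77% of all features) and 10 were lower (12.8% of all features). In 138 genes both male libraries lay above both female libraries (25.2% of all features), and in 18 both lay below (32.1% of all features).

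The measured Z differences varied from gene to gene. KANK1 was not well above background in male 1 or male 2. With it set there at the lowest signal of any probe well above background, the differences had a standard deviation of 0.60 and ran from -1.56 to 2.29. As measured, the standard deviation was 0.62, against 0.49 over autosomal genes. How much of that spread is noise between libraries or probes was not tested. By size, 31 genes were below 0 (54.3% of all features), 25 lay between 0 and 0.25 (23.5%), and 63 between 0.25 and 0.75 (17.8%). A further 39 lay between 0.75 and 1 (2.18% of all features), and 32 at 1 or more, which is a ratio of at least 2 (2.28%). The 95% confidence intervals of the fit, which rest on 2 libraries against 2, held a difference of 1 but not 0 for 84 genes and 0 but not 1 for 65. They lay wholly between 0 and 1 for 20 genes, held both for 6, lay wholly below 0 for 10 and wholly above 1 for 5. An interval wholly below 0 is the same call as lower at limma's unadjusted p of 0.05, which 12.8% of all features were. The other classes were not counted over all features, so the counts do not settle the dose of single genes. Among the 5 above 1 were CDKN2A, SMC2, ATP5I and GLRX, and the 10 below 0 were F2RL1, RLN3, EFNA5, PIP5K1B, SYK, OSMR, VLDLR, GHR, JAK2 and NTRK2. These classes are those of each gene's brightest probe, and the 3 probes of SMC2 ran from 0.98 to 1.59.

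The libraries numbered 3 gave the reverse order. In male 3 minus female 3, a comparison of 1 library with 1 and so without a test, the median Z difference was -0.55 (1.46-fold lower in male 3), a shift of -0.56 against the autosomes. The level was lower in male 3 for 161 of 190 Z genes, beside 45.8% of all features. It was lower by 1.5-fold or more for 90 Z genes (7.4% of all features) and higher by as much for 7 (9.79% of all features). The sign was opposite to that of the 4 libraries for 172 genes, beside 64.2% of all features, of which 151 were higher in male 1 and 2 and lower in male 3.

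The per-gene differences were mostly opposite in sign and had medians of similar size, though single genes such as CDKN2A and RLN3 differed in size. Across the 190 Z genes, the difference in the 4 libraries and that of male 3 minus female 3, which share no library, had a Pearson correlation of -0.76 and a Spearman correlation of -0.76. Across 4647 autosomal genes the Pearson correlation was -0.25. Male 1 minus female 1 and male 2 minus female 2 correlated at 0.75 across the Z genes and at 0.47 across autosomal genes. These are descriptions across genes of the same libraries, and genes are not independent replicates. Of the 138 Z genes higher without overlap in the 4 libraries, 102 had female 3 on the male side and male 3 on the female side of the midpoint. Of the 7427 features of the whole series higher without overlap, 1897 did so, which is 6.43% of all features. Of the 18 Z genes that were lower without overlap, 3 crossed in that way: F2RL1, RLN3 and PTCH1, a hedgehog receptor named here after its values were seen. Of the 9462 features lower without overlap, 2676 crossed, which is 9.07% of all features.

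**Figure D2:**
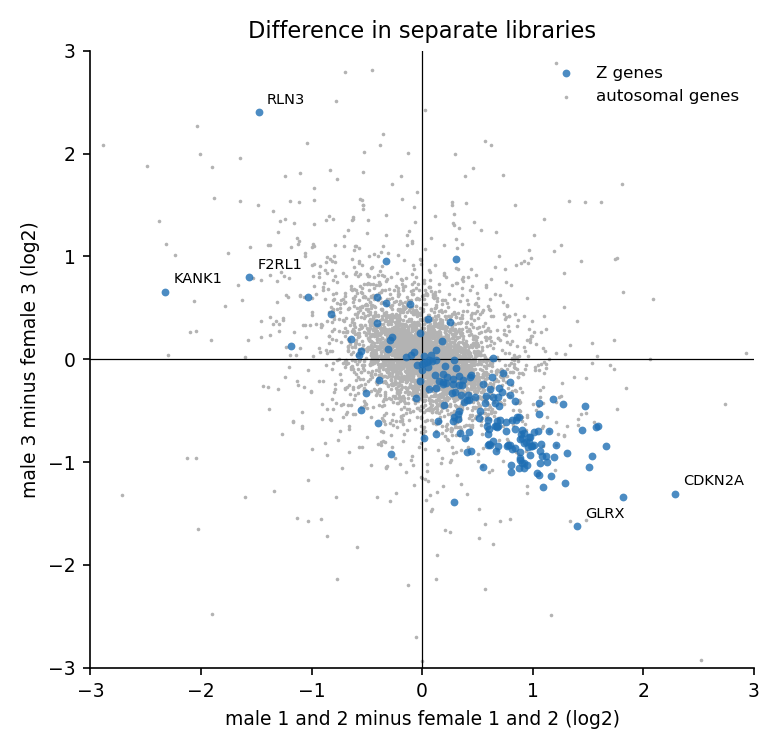
Difference between male 1 and 2 and female 1 and 2 (horizontal axis, log2) against male 3 minus female 3 (vertical axis, log2) for 190 Z genes (blue) and autosomal genes (grey, 20 of 4647 outside the axes). Most Z genes lie at the lower right, higher in male 1 and 2 and lower in male 3, and RLN3, F2RL1 and KANK1 lie at the upper left; KANK1 is drawn at its measured value, not well above background in male 1 or male 2.

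The highest difference on the Z was that of CDKN2A, the tumour suppressor locus that encodes an ARF protein in chickens. Its level was 2.36, 2.69 and 0.63 in male 1, 2 and 3, against 0.34, 0.15 and 1.94 in female 1, 2 and 3. Male 1, male 2 and female 3 were the 3 high libraries, and no value of theirs overlapped the other 3. In the 4 libraries it was 4.87-fold higher in male (difference 2.29, SE 0.18, n = 2 each, limma adjusted p = 0.058), and male 3 minus female 3 gave -1.31. Its neighbour CDKN2B, a cyclin-dependent kinase inhibitor, stood at -3.24, -3.64 and -5.16 in male 1, 2 and 3, against -5.65, -4.87 and -3.82 in female 1, 2 and 3. The same 3 libraries were high, and the difference in the 4 libraries was 1.82 (SE 0.33, limma adjusted p = 0.124). MTAP, which recycles methylthioadenosine and lies next to CDKN2A in gene order, differed by 1.12 (SE 0.13, limma adjusted p = 0.088).

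SMC2, a subunit of the condensin complex that compacts mitotic chromosomes, was also among the highest. It had levels of 0.67, 0.53 and -0.81 in male 1, 2 and 3, against -1.13, -0.87 and -0.16 in female 1, 2 and 3, a difference of 1.59 in the 4 libraries (SE 0.16, limma adjusted p = 0.076). Male 1 and male 2 were the highest, female 3 came next, and male 3 lay just above female 1 and female 2.

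ATP5I and GLRX serve energy and redox metabolism. ATP5I, a small subunit of mitochondrial ATP synthase, had levels of 5.57, 5.73 and 4.68 in male 1, 2 and 3, against 4.003, 4.28 and 5.73 in female 1, 2 and 3. GLRX, the thiol reductase glutaredoxin, had 2.55, 2.54 and 1.73 in male 1, 2 and 3, against 1.22, 1.07 and 3.35 in female 1, 2 and 3. Female 3 was at or above every other library for both. The difference in the 4 libraries was 1.51 (SE 0.16, limma adjusted p = 0.087) for ATP5I and 1.40 (SE 0.13, limma adjusted p = 0.073) for GLRX.

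Also among the 10 highest were SNX24, CD72L1, TMEM175 and AVR2. SNX24, a sorting nexin of membrane traffic, differed by 1.66 (SE 0.32) and CD72L1, related to the B cell co-receptor CD72, by 1.57 (SE 0.21). TMEM175, a lysosomal potassium channel, differed by 1.47 (SE 0.40), with female 1 at -1.18 well below female 2 at -0.09. AVR2, an avidin-related gene with near-identical copies that probes may not separate, differed by 1.45 (SE 0.18), and its 2 probes gave 0.82 and 1.45. Limma's adjusted p was 0.129 for SNX24, 0.10 for CD72L1, 0.174 for TMEM175 and 0.094 for AVR2, and in male 3 minus female 3 all 4 were lower, with differences of -0.84 to -0.46. Over all 6 libraries the 10 highest genes differed by 0.39 (GLRX) to 1.09 (CDKN2A), with limma adjusted p = 0.948 for each.

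At the other end were the 10 genes with the lowest measured differences. KANK1, a regulator of actin organisation, was not well above background in male 1 or male 2, where its measured mean was -7.75, against -5.43 in female 1 and 2. With those arrays set at the lowest signal of any probe well above background, it was 2.34-fold lower in male 1 and 2. That signal is no strict limit: LOC770548 in male 1 lay at -6.56 without the flag, against a lowest flagged signal of -6.58. As measured, limma's adjusted p for KANK1 was 0.243. F2RL1, the protease-activated receptor also called PAR2, had levels of -2.64, -2.70 and -1.25 in male 1, 2 and 3, against -1.37, -0.84 and -2.04 in female 1, 2 and 3. It differed by -1.56 in the 4 libraries (SE 0.22, limma adjusted p = 0.104) and by 0.80 in male 3 minus female 3.

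RLN3, which encodes a relaxin-family peptide, ran opposite to most Z genes in every library. Its level was -4.23, -4.29 and -2.04 in male 1, 2 and 3, against -2.96, -2.61 and -4.45 in female 1, 2 and 3. Male 1, male 2 and female 3 were the low libraries, without overlap with the other 3. The difference was -1.48 in the 4 libraries (SE 0.17, limma adjusted p = 0.088) and 2.40 in male 3 minus female 3, the highest of any Z gene in that pair. Its 2 probes agreed in sign, at -1.48 and -1.38.

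As with F2RL1 and RLN3, the lowest libraries of EFNA5, PIP5K1B and KCNN2 were male 1, male 2 and female 3. Those of MPDZ, VLDLR, SYK and OSMR were not. EFNA5 had levels of -3.97, -3.38 and -2.86 in male 1, 2 and 3, against -2.42, -2.55 and -2.99 in female 1, 2 and 3. Male 1 and male 2 were lowest and female 3 came next, close to male 3 and on the female side of the midpoint. The difference in the 4 libraries was -1.19 (SE 0.24, limma adjusted p = 0.134). PIP5K1B, a phosphoinositide kinase, differed by -1.03 (SE 0.20). It stood at 0.23, 0.54 and 0.85 in male 1, 2 and 3, against 1.59, 1.24 and 0.25 in female 1, 2 and 3. KCNN2, a calcium-activated potassium channel, differed by -0.82 (SE 0.34). It stood at -5.04, -4.13 and -3.49 in male 1, 2 and 3, against -3.77, -3.76 and -3.93 in female 1, 2 and 3. MPDZ, a scaffold of cell junctions, differed by -0.64 (SE 0.30), near background and with a sign that turned with another background correction. VLDLR, the very low density lipoprotein receptor, differed by -0.55 (SE 0.19). SYK, the kinase of B cell receptor signalling, and OSMR, a receptor subunit for oncostatin M, differed by -0.57 (SE 0.15) and -0.55 (SE 0.20). Limma's adjusted p of these 6 genes ran from 0.129 to 0.304. Over all 6 libraries the 10 lowest genes other than KANK1 differed by -0.78 (F2RL1) to -0.18 (RLN3), with limma adjusted p of 0.948 to 0.973.

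**Figure D3:**
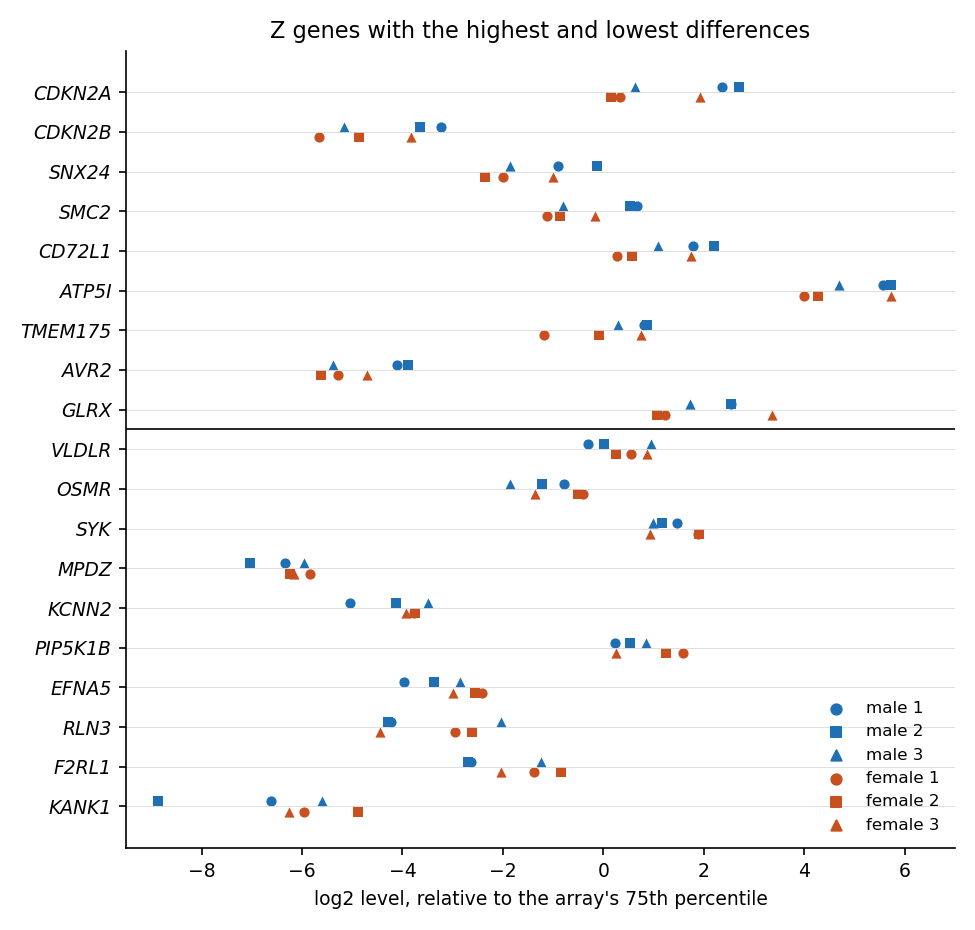
Log2 level relative to the array's 75th percentile (horizontal axis) of 9 of the 10 Z genes with the highest (upper rows) and the 10 with the lowest (lower rows) difference between male 1 and 2 and female 1 and 2, one row a gene; blue symbols are male-labelled and red symbols female-labelled libraries, with circles for number 1, squares for 2 and triangles for 3. In the upper rows the blue triangle lies to the left of the red triangle in all 9 genes, opposite to the circles and squares; the male 1 and male 2 values of KANK1 were not well above background.

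By role, genes were grouped in lists, and 3 of these lay almost all above 0. They were DNA repair and cell cycle, ribosome and translation, and mitochondrial and energy metabolism. Genes listed under immune signalling spread to both sides. The lists were drawn loosely and are not full classes. SMC2 and ATP5I are on no list, and MTAP was counted under DNA repair and cell cycle. All 19 measured genes on the DNA repair and cell cycle list were higher in male in the 4 libraries, with a median of 0.84. Of these, 17 had an unadjusted p under 0.05. Among them HAUS6, a subunit of the spindle complex augmin, differed by 0.97 (SE 0.12, limma adjusted p = 0.094). The list's median was 0.39 over all 6 libraries and -0.65 in male 3 minus female 3. Over all features, 45.7% were higher in the 4 libraries and 8.77% were higher at that p. Over the 190 Z genes, from which every list is drawn, 83.7% were higher and 57.4% were higher at that p. No list was tested against the other Z genes.

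Of 16 genes of the ribosome, translation and RNA processing, 15 were higher in the 4 libraries, with a median of 0.90, and 12 had an unadjusted p under 0.05. MRPS30, a mitochondrial ribosomal protein, had levels of 1.67, 1.70 and 0.76 in male 1, 2 and 3, against 0.58, 0.66 and 1.65 in female 1, 2 and 3. Its high libraries were again male 1, male 2 and female 3, at nearly equal levels, and the difference was 1.06 (SE 0.12, limma adjusted p = 0.088). PPWD1, a spliceosomal cyclophilin, differed by 1.05 (SE 0.12), RIOK2, a kinase of small-subunit maturation, by 0.90 (SE 0.12), and UTP15, a factor of pre-rRNA processing, by 0.94 (SE 0.12). The list's median was 0.35 over all 6 libraries and -0.72 in male 3 minus female 3.

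All 12 measured genes on the mitochondrial and energy metabolism list were higher in the 4 libraries, with a median of 0.94. Of these, 8 had an unadjusted p under 0.05. The list is not confined to mitochondrial genes, as it also holds GLRX, FBP1 and PRKAA1. AMACR, a racemase needed to oxidise branched fatty acids, had levels of -1.28, -1.13 and -2.07 in male 1, 2 and 3, against -2.60, -2.43 and -1.16 in female 1, 2 and 3. The difference was 1.31 (SE 0.14, limma adjusted p = 0.088). NDUFAF2, an assembly factor of respiratory complex I, differed by 1.04 (SE 0.12), and ACAA2, the thiolase of fatty acid oxidation, by 1.01 (SE 0.12). Over all 6 libraries the median was 0.31, and in male 3 minus female 3 it was -0.77.

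Chaperones and genes of ubiquitin and membrane traffic numbered 16, with a median of 0.63 in the 4 libraries, 14 higher and 10 with an unadjusted p under 0.05. CLTA, a clathrin light chain, differed by 1.16 (SE 0.15), TBCA, a tubulin folding cofactor, by 1.15 (SE 0.15), TRAPPC13, a subunit of a vesicle tethering complex, by 0.96 (SE 0.13), and SNX2, a retromer-associated nexin, by 0.86 (SE 0.13). The list of lipid and sterol metabolism, also drawn loosely, had 9 measured genes with a median of 0.33, and 6 were higher. It also held a gene of haem synthesis and the membrane protein LMBRD2, both counted among the higher. PLIN2, a lipid droplet coat protein, differed by 0.99 (SE 0.15), STARD4, a sterol carrier, by 0.48 (SE 0.12), and LMBRD2, a membrane protein, by 0.59 (SE 0.18). On that list 4 genes were higher at an unadjusted p under 0.05, and VLDLR was lower. The medians over all 6 libraries were 0.17 for chaperones and traffic and 0.12 for lipid metabolism, and those of male 3 minus female 3 were -0.57 and -0.37.

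Of 13 transcription factors and chromatin regulators, 9 were higher in the 4 libraries, with a median of 0.30 (0.19 to 0.39 under the other scalings, filters and probe rules). At an unadjusted p under 0.05, 4 were higher. SUB1, a transcriptional coactivator, differed by 0.97 (SE 0.13), but on its brightest probe alone, and its other probes lay between -0.07 and 0.09. HABP4, an RNA and chromatin binding protein, differed by 0.63 (SE 0.21), PSIP1, a chromatin reader, by 0.62 (SE 0.14), and SMAD2, the TGF-beta signal transducer, by 0.57 (SE 0.13). For PSIP1 the reverse order of the pair was weaker, with 2.21, 2.21 and 2.19 in male 1, 2 and 3, against 1.48, 1.70 and 2.48 in female 1, 2 and 3. Male 3 thus kept the level of male 1 and male 2. The list's median was 0.05 over all 6 libraries and -0.29 in male 3 minus female 3.

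The cytokine receptor and immune signalling list had the lowest median, 0.12, over 18 measured genes of 51 listed. That median moved with the processing, between 0.016 with probes averaged and 0.20 with median scaling. In the 4 libraries 11 were higher and 7 lower, and 5 passed an unadjusted p of 0.05 in each direction. Over all features, 45.7% were higher, and at that p 8.77% were higher and 12.8% lower. The 5 lower were F2RL1, SYK, OSMR, GHR and JAK2, the kinase behind many cytokine receptors. Among the 5 higher, NFIL3, a basic leucine zipper transcription factor, differed by 0.78 (SE 0.18), SEMA4D by 0.74 (SE 0.18) and GADD45G, a stress response gene, by 0.62 (SE 0.14). The list's median was -0.04 over all 6 libraries and -0.34 in male 3 minus female 3. Of the genes named here, F2RL1, OSMR, GHR, NFIL3 and GADD45G had mean levels under -0.87, and SYK, JAK2 and SEMA4D did not. Z genes under that level had a lower median of 0.33 in the 4 libraries, and the part of signal level in this list's median was not tested. The average of the 4 heterophil markers, given above, was lowest in male 2 and female 2 and highest in male 3 and female 3. AvBD1, AvBD6 and AvBD7 had that order, and CATHB1 did not. The part of these markers in the values of this list was not tested.

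SYK illustrates the immune genes that were lower. It stood at 1.47, 1.18 and 0.98 in male 1, 2 and 3, against 1.88, 1.90 and 0.94 in female 1, 2 and 3. Female 1 and female 2 were high, and both libraries numbered 3 were low, below male 1 and male 2. JAK2 had levels of -0.11, -0.09 and -0.22 in male 1, 2 and 3, against 0.42, 0.20 and -0.83 in female 1, 2 and 3. The male libraries lay close together while the female libraries spread widely around them, and the difference in the 4 libraries was -0.41 (SE 0.14, limma adjusted p = 0.216).

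**Figure D4:**
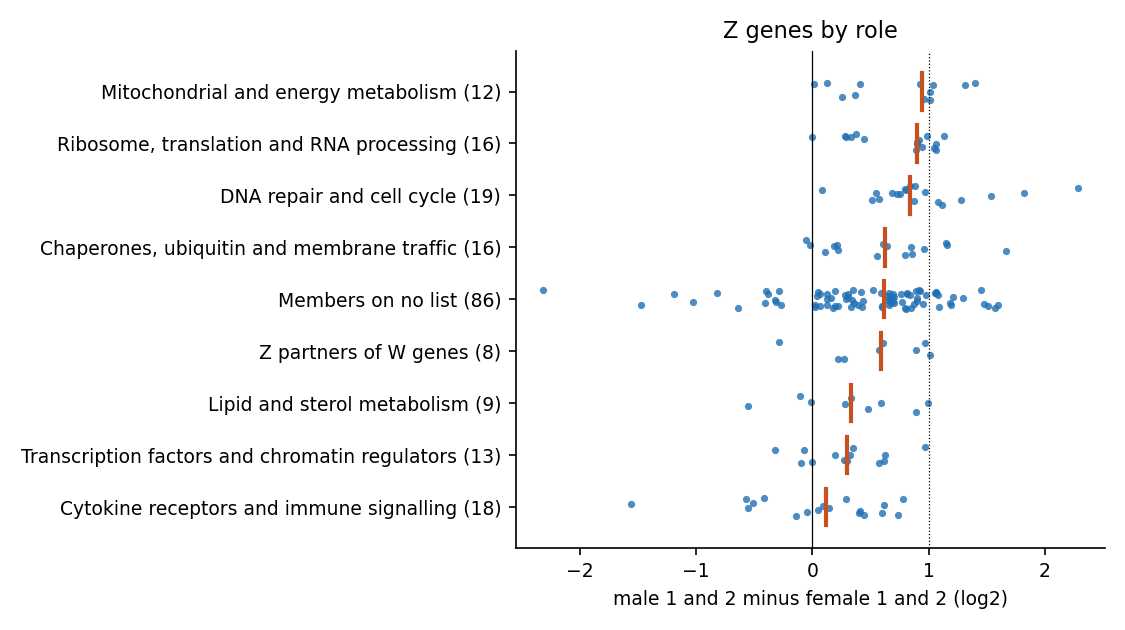
Difference between male 1 and 2 and female 1 and 2 (horizontal axis, log2) of each Z gene, by gene list (rows, with the number of measured genes); red bars are list medians, the solid line marks 0 and the dotted line a difference of 1. Medians run from 0.94 for the mitochondrial and energy metabolism list to 0.12 for the immune signalling list, which has 7 of 18 genes below 0.

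Of the Z genes listed as having a W partner, 8 were measured, with a median of 0.59 in the 4 libraries and 7 higher. ATP5F1AZ, the Z copy of the ATP synthase alpha subunit, had levels of 4.88, 4.94 and 4.13 in male 1, 2 and 3, against 3.80, 3.99 and 4.84 in female 1, 2 and 3, a difference of 1.02 (SE 0.14, limma adjusted p = 0.10). Its 6 probes ran from 0.41 to 1.16. RPL17, a large-subunit ribosomal protein, differed by 0.89 (SE 0.13), and UBE2R2, a ubiquitin-conjugating enzyme, by 0.61 (SE 0.13). Probes for such genes may also bind the W transcript, and the probes of some disagreed. Of SUB1's 5 probes the brightest gave 0.97, and the others lay between -0.07 and 0.09. With each gene's probes averaged, the list's median was 0.34 and 5 of 8 were higher. The median of these 8 genes was 0.21 over all 6 libraries and -0.69 in male 3 minus female 3. The 86 Z genes on no list had a median of 0.62 in the 4 libraries, close to the 0.60 of all Z genes, with 73 higher.

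Along the chromosome, in the gene order of GRCg7b, male-higher genes were found from end to end. In consecutive blocks of 20 measured genes the median difference of the 4 libraries lay between 0.19 and 0.71, and the last block of 10 genes (DTWD2 to MELK), which holds MTAP, CDKN2A and CDKN2B, had 0.99. The lowest block was the one from RPL37 to KIF2A, with 0.19 and 13 of 20 genes higher. The block from VLDLR to ANXA1 had a median of 0.68 with 14 of 20 higher. In male 3 minus female 3 all 10 blocks had negative medians, from -0.79 (CD72L1 to PRKAA1) to -0.16 (RPL37 to KIF2A). The smallest size in both comparisons was thus that of the RPL37 to KIF2A block. Neighbouring genes were only weakly alike, with a correlation between adjacent Z genes of 0.16 in the 4 libraries and 0.18 in male 3 minus female 3 (189 neighbour pairs). Array coordinates are of another genome build, so order is given without positions.

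**Figure D5:**
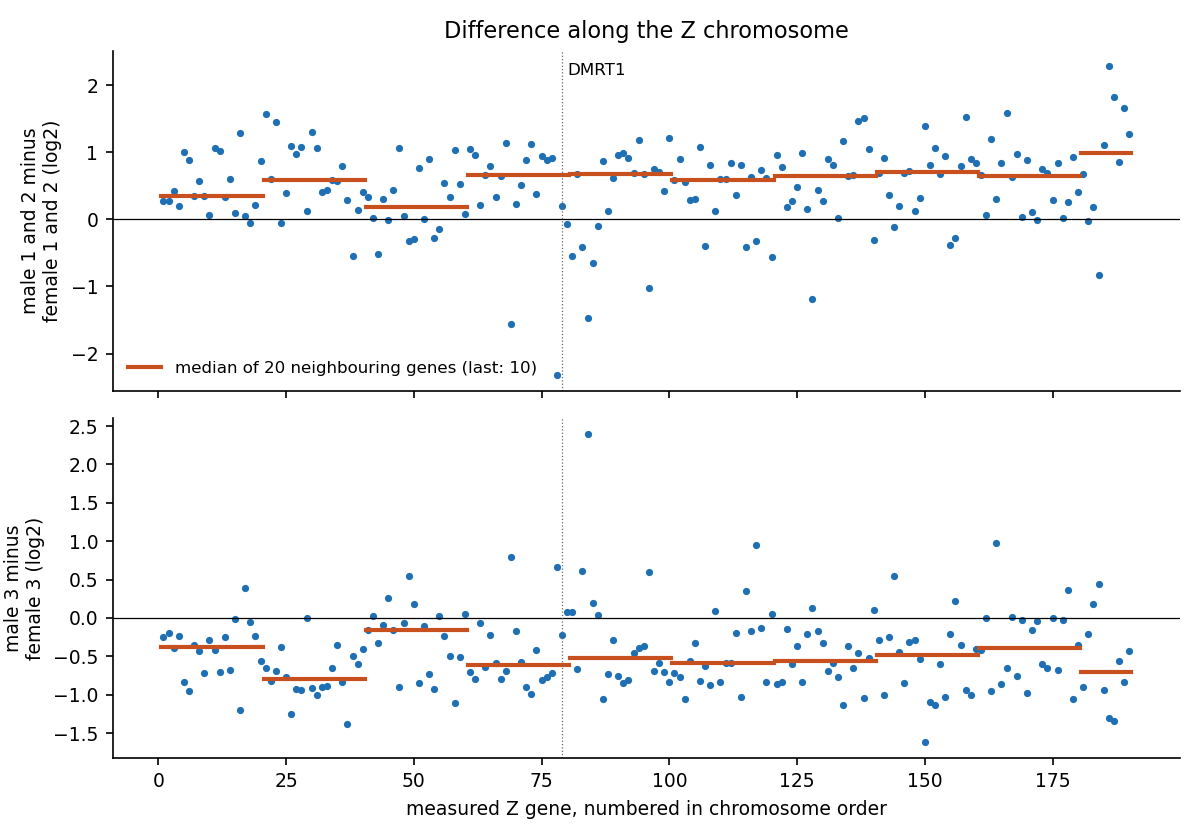
Difference between male 1 and 2 and female 1 and 2 (upper panel, log2) and male 3 minus female 3 (lower panel, log2) of each Z gene, numbered in chromosome order (horizontal axis); red bars are medians of 20 neighbouring genes (10 in the last block) and the dotted line marks DMRT1. Block medians lie above 0 throughout the upper panel and below 0 throughout the lower one, with several genes below 0 just after DMRT1 in the upper panel.

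Around DMRT1 the difference changed side within a few genes. DMRT1 itself, measured by 1 probe at a low level, stood at -2.28, -2.28 and -2.47 in male 1, 2 and 3, against -2.50, -2.45 and -2.25 in female 1, 2 and 3. The order of libraries was that of most Z genes, but the difference of 0.19 in the 4 libraries was small (SE 0.12, limma adjusted p = 0.394). The genes before it in order, GFM2 (a mitochondrial translation factor), UTP15, ANKRA2 (an ankyrin-repeat adaptor) and CBWD1 (a metal chaperone homologue), differed by 0.38, 0.94, 0.89 and 0.92. KANK1 followed, 2.34-fold lower in male 1 and 2 when set there at the lowest signal of any probe well above background.

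After DMRT1 came SMARCA2, an ATPase of the SWI/SNF chromatin remodelling complex, at 2.73, 3.35 and 2.94 in male 1, 2 and 3, against 3.17, 3.06 and 2.86 in female 1, 2 and 3. The labels overlapped fully, the difference in the 4 libraries was -0.07 (SE 0.25), and its sign turned, to 0.020, when arrays were scaled by their median. VLDLR stood at -0.31, 0.01 and 0.95 in male 1, 2 and 3, against 0.55, 0.25 and 0.87 in female 1, 2 and 3, with both libraries numbered 3 highest. PUM3, an RNA-binding nucleolar protein, interrupted the stretch with a difference of 0.67 (SE 0.12), and JAK2 and RLN3 followed with -0.41 and -1.48. Of the 10 measured genes after DMRT1 (SMARCA2 to PSIP1), 4 were higher and 6 lower, with a median of -0.08. Over all features, 45.7% were higher and 54.3% lower. MPDZ, one of the 6 lower, was near background, and its sign turned with another background correction. The 10 before DMRT1 (F2RL1 to KANK1) had 8 higher and a median of 0.70. Among the 169 Z genes outside these 21, 146 were higher and the median was 0.60. In male 3 minus female 3, the 10 genes after DMRT1 had a median of 0.06. No test of this stretch was made.

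Differences were less uniform among dim genes, on the Z and on the autosomes alike. With levels of -0.87 and 1.29, which divide the Z genes into 3 equal groups by mean level, as limits, the 63 dim Z genes had a median of 0.33 in the 4 libraries, with 44 higher, against 0.68 for 63 genes of middle level (57 higher) and 0.65 for 64 bright genes (58 higher). Autosomal medians were -0.05, 0.06 and 0.08 in the dim, middle and bright groups. The standard deviations in that order were 0.76, 0.50 and 0.49 for Z genes and 0.62, 0.44 and 0.33 for autosomal genes. Of the 190 genes, 127 had at least 2 probes past the filter, and all probes had the same sign in 113 of these. In the other 14 the probes disagreed in sign, among them SUB1.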

How the data were processed

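Each array was scanned as 1 colour (Cy3), and the deposited intensities are the scanner software's processed signals with the background already removed, per the file headers, which name Agilent Feature Extraction 11.5.1.1. The authors' deposited table of processed values holds the same intensities times 1 factor per array (2.10 to 2.31). It is linear and not centred, with column medians of 286, 292 and 301 in male 1, 2 and 3 and of 318, 313 and 291 in female 1, 2 and 3. The flags for signal well above background, saturation and outliers are also as deposited. From them, log2 of each intensity was taken minus the array's 75th percentile (873 to 983 in intensity). Probes well above background on at least 3 arrays were kept (35141 of 43603), control spots and outlier flags were left out, and spots of 1 probe were averaged. Array probes were named through RefSeq accessions without versions in the GRCg7b gene table, which gave 11935 named probes of 5382 genes, and a gene's brightest kept probe stood for it. The array's own coordinates are of another build and were not used. No sequence is printed, since no sequence table was used here.

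Differences, male minus female, were tested with limma 3.58.1 in R 4.3.3 (lmFit and eBayes, two-sided) over all 29509 features with Benjamini-Hochberg adjustment, on 6 libraries and on the 4 numbered 1 and 2. The fit was tested on simulated data. Whether the replicate numbers pair the libraries is not known. Deviations from the label means of same-numbered libraries correlated at 0.01, -0.11 and -0.21 over all features. Those means include male 3 and female 3, which went against their labels, so the correlations cannot decide the question. The replicate block is given as an alternative only. The Z genes, the gene lists and the 4 libraries fitted apart were chosen with earlier results of these data known, the Z levels of male 3 and female 3 included. Named genes were the 10 highest and 10 lowest in the 4 libraries, the 6 smallest p over 6 libraries, up to 4 per list, and DMRT1 with 5 genes on each side, apart from those said to be named after their values were seen. Of the genes so chosen, 2 are not reported here. Alternatives changed the background correction (normexp on median spot and background intensities, offset 50), scaling, filter, probe rule, moderation and libraries. The number of arrays limits the precision.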

Additional observations from a re-analysis of the deposited data

How the results depend on the processing

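The direction of the Z shift was the same under every alternative run for the 4 libraries and for male 3 minus female 3. In the 4 libraries (0.55) it was 0.51 with no filter on dim probes, 0.46 with normexp background correction, 0.53 with the mean of a gene's probes and 0.57 with quantile normalization, and 0.52 to 0.56 leaving out 1 library. In male 3 minus female 3 (-0.56) it was -0.50, -0.42 and -0.52 under the first 3 of these. Over 6 libraries (0.16) it was 0.55 without male 3 and female 3 and 0.07 to 0.36 leaving out 1 library. The number of Z genes at an unadjusted p under 0.05 rested most on those libraries. It was 1 over all 6 (3.81% of all features) and 119 without male 3 and female 3 (21.6% of all features). Leaving out 1 library it was 1 to 50 (50 without female 3, 20 without male 3, 2 without male 2). It was 2 with only probes well above background on all 6 arrays, 2 with autosomal scaling, 2 with no filter, 2 with normexp and 0 with the mean of probes. With the replicate block it was 3 over 6 libraries and 111 in the 4. Z genes at an adjusted p under 0.05 in the 4 libraries, 0 as reported, were 1 with median scaling (CDKN2A), 2 with normexp and 2 with eBayes trend and robust (CDKN2A and GLRX). No share of all features is given for the counts under the other alternatives, so those counts cannot show a change particular to the Z. Signs turned with normexp for MPDZ (0.066) and NTRK2 (0.16 in the 4 libraries, 0.064 over 6), both measured near background, and for SMARCA2 with median scaling (0.020), with -0.38 to 0.24 leaving out 1 library. Of 904 values of single genes under an alternative, 894 kept their sign and side of the adjusted p threshold of 0.05. No Z gene passed that threshold as reported, and many of these genes were chosen for extreme values. The count is therefore no measure of how firm single results are. Under the scalings, filters and probe rules run, the immune signalling list had 9 to 12 of 18 genes higher in the 4 libraries and the DNA repair and cell cycle list 19 of 19, and the list of genes with a W partner 5 to 8 of 8 with medians of 0.34 to 0.68. The cause of these changes was not tested, beyond the fewer libraries where some were left out. Leaving a library out of the 4 leaves 1 in its group, which is assumed to vary like the other. Dim probes limit KANK1, MPDZ, NTRK2, RAX, LIFR and LOC770548, which were not well above background on all arrays.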

Other observations

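The Z stood apart from every autosome with at least 20 measured genes. In the 4 libraries numbered 1 and 2 the median difference of these 29 autosomes lay between -0.10 and 0.13, against 0.60 for the Z, and in male 3 minus female 3 between -0.05 and 0.09, against -0.55 for the Z. Over the 408 kept probes of the 190 Z genes, counted singly, the median difference in the 4 libraries was 0.51. Probes of VCP, an ATPase that extracts proteins for degradation and one of the genes with a W partner, ran from -0.77 to 0.22 over 6 probes, and those of CHD1, a chromatin remodeller with a W copy, from -0.68 to 0.30 over 7; both are named after their values were seen.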
